A study of Brachypodium distachyon with 214 samples.

Results

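Bradi3g44990 and Bradi1g15840 are 2 nuclear genes of the annual grass Brachypodium distachyon, 2 of the 32523 rows of the count table and 2 of the 26136 rows with a count in more than 10 libraries. The study annotates Bradi3g44990 as a putative cell-wall invertase and Bradi1g15840 as a putative allene oxide cyclase, and names them as a predicted regulator and its predicted target in the accession Bd21, and not in Bd3-1. They were taken here by locus name because of that link, so the covariation of the pair is given below as a description, without a test. Levels across groups and the other genes that moved with each of them were tested.

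Cell-wall invertase cleaves sucrose into glucose and fructose outside the plasma membrane, and in plants it is known for setting sink strength and for responding to wounding and pathogens. Allene oxide cyclase acts in the plastid on a product of linolenic acid and makes the precursor of jasmonate, the hormone of wounding and herbivore defence. Jasmonate is known to raise phenylpropanoid genes, whose enzymes make lignin precursors and flavonoids from phenylalanine.

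Leaf messenger RNA of single plants was counted by 3′ digital gene expression, a method that sequences only the tail side of transcripts, so that gene length does not enter the counts. The groups were 49 droughted and 48 control plants of Bd21 and 58 droughted and 58 control plants of Bd3-1, both inbred accessions without a transgene. Drought was a dry-down begun on day 33 after sowing that took 6 days to bring the soil to 55% of field capacity, while control soil was held at 85%. Droughted Bd3-1 plant 59 was left out, so 213 of 214 libraries were used.

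Each library came from 1 plant. Library totals had a median of 1.92 M counts and ranged over 0.525 to 8.37 M, the deepest being a Bd21 control library and the next 3.05 M. Plastid coding sequences took 4.76% to 9.66% of the counts, and Bradi4g31257, a chlorophyll a-b binding protein, had 40 to 429 counts in every library, as leaf material has. Neither gene of the pair had an estimate with a fraction in any library, so neither shared reads with another transcript. Bd21 transcripts served as the alignment target for Bd3-1 reads too, and the part of sequence differences in any difference between accessions was not tested.

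Both genes were lower in droughted than in control Bd21 plants and higher in Bd21 than in Bd3-1. Bradi3g44990 fell under drought in Bd3-1 too, and Bradi1g15840 stood about 1 log2 unit higher in Bd21 than in Bd3-1 in either treatment. Levels are counts divided by relative log expression size factors, called normalised read counts here, and in leaf samples fewer cells of a type and less RNA per cell cannot be told apart.

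The putative invertase Bradi3g44990 had a lowest, median and highest normalised read count of 31.3, 52.9 and 149.5 in droughted Bd21 plants, against 45.2, 70.1 and 230.9 in Bd21 control plants. In droughted Bd3-1 plants these values were 25.1, 39.7 and 135.7, against 39.2, 58.9 and 287.6 in Bd3-1 control plants. The means were 58.7 ± 21.9 (SD, n = 49), 77.8 ± 32.0 (n = 48), 42.9 ± 16.0 (n = 58) and 65.3 ± 33.8 (n = 58) in the same order. Droughted plants lay mostly below the control plants of their accession but the ranges overlapped: 39 of 49 droughted Bd21 plants and 54 of 58 droughted Bd3-1 plants were under the control median.

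Bradi3g44990 fell under drought by 0.41 on the log2 scale in Bd21 (SE 0.09, adjusted p = 0.000248 by the quasi-likelihood test of edgeR), where 11.1% of all tested genes fell. It fell by 0.62 in Bd3-1 (SE 0.09, adjusted p = 1e-09), where 14.7% of all tested genes fell. The drought effect in Bd21 minus that in Bd3-1 was 0.21 (SE 0.13, 95% interval -0.04 to 0.46), which did not pass its threshold of 0.1 (adjusted p = 0.616). Between accessions it was higher in Bd21 by 0.25 in control plants (SE 0.10, adjusted p = 0.0343), where 18.1% of genes were higher in Bd21, and by 0.46 in droughted plants (SE 0.08, adjusted p = 1.62e-06), where 18.8% were.

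The putative allene oxide cyclase Bradi1g15840 had a lowest, median and highest normalised read count of 19.4, 39.8 and 113.9 in droughted Bd21 plants, against 24.1, 46.7 and 137.5 in Bd21 control plants. In droughted Bd3-1 plants these values were 11.6, 21.95 and 34.9, against 11.2, 23.1 and 68.9 in Bd3-1 control plants. The accessions stood apart more than the treatments did. All 48 Bd21 control plants were above the median of Bd3-1 control plants, and 30 of 49 droughted Bd21 plants were above the highest droughted Bd3-1 plant.

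Bradi1g15840 was higher in Bd21 than in Bd3-1 by 1.04 on the log2 scale in control plants (SE 0.09, adjusted p = 3.15e-19) and by 0.91 in droughted plants (SE 0.08, adjusted p = 7.69e-18). Under drought it fell by 0.26 in Bd21 (SE 0.10, adjusted p = 0.0382). In Bd3-1 its drought effect was -0.12 (SE 0.08, 95% interval -0.28 to 0.03) and did not pass the test (adjusted p = 0.247). The drought effects in Bd21 and Bd3-1 were not shown to differ (difference -0.14, SE 0.13, 95% interval -0.39 to 0.11, adjusted p = 0.794, with 1.78% of all tested genes called in this comparison).

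**Figure D1:**
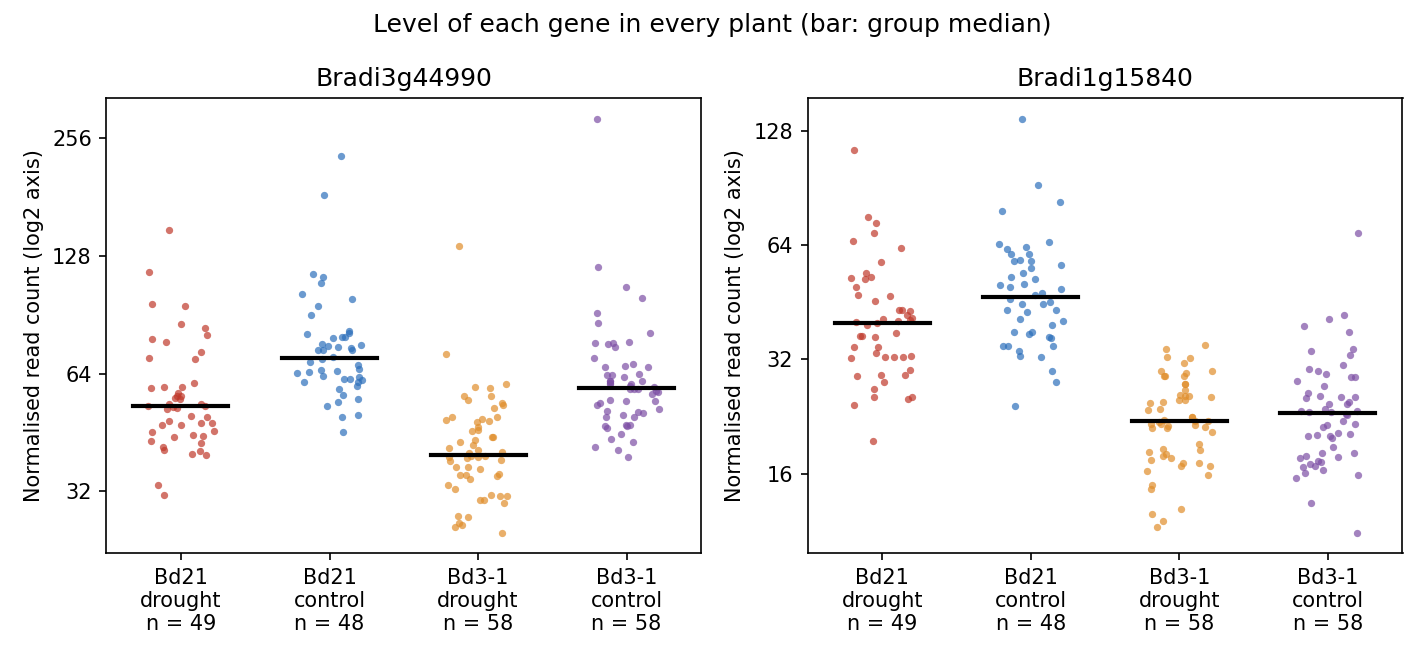
Normalised read count of Bradi3g44990 (left) and Bradi1g15840 (right) on a log2 axis, 1 point per plant in 4 groups, with a bar at the group median. Bradi1g15840 has medians of 39.8 and 46.7 in Bd21 against 21.95 and 23.1 in Bd3-1, while the droughted medians of Bradi3g44990, 52.9 and 39.7, lie below the control medians of 70.1 and 58.9.

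A few plants stood far above the rest. In each group the highest plant for Bradi3g44990 had 2.82 times (droughted Bd21), 3.30 times (Bd21 control), 3.42 times (droughted Bd3-1) and 4.89 times (Bd3-1 control) the group median. Droughted Bd21 plant 36, Bd21 control plant 41 and Bd3-1 control plant 2 were the only plants above 2 times the group median of both genes. In droughted Bd3-1, 1 plant passed that mark for Bradi3g44990 and 0 plants for Bradi1g15840. The spread of Bradi1g15840 was also lowest there, with a coefficient of variation of 25.7%, against 39.3% in droughted Bd21, 38.1% in Bd21 control and 37.0% in Bd3-1 control plants.

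Within groups the pair covaried most in Bd21. Pearson's r on log2(normalised read count + 1) was 0.647 in droughted Bd21 plants (rho = 0.533, n = 49) and 0.657 in Bd21 control plants (rho = 0.4997, n = 48). In droughted Bd3-1 plants r was 0.194 (rho = 0.190, n = 58), and in Bd3-1 control plants it was 0.444 (rho = 0.206, n = 58). These values are the pattern for which the pair was named, and they carry no test.

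The slope of Bradi1g15840 on Bradi3g44990, in log2 units of the target per log2 unit of the regulator, was 0.70 ± 0.12 (SE) in droughted Bd21 and 0.69 ± 0.12 in Bd21 control plants. It was 0.17 ± 0.12 in droughted Bd3-1 and 0.43 ± 0.12 in Bd3-1 control plants. So in droughted and control Bd21 a plant with more of the putative invertase transcript also had more of the cyclase transcript, at nearly the same slope.

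The values in Bd3-1 rested on single plants. Without Bd3-1 control plant 2, which had 287.6 normalised counts of Bradi3g44990 and 68.9 of Bradi1g15840, r in that group was 0.203. Without droughted Bd3-1 plant 37, which had the smallest of all libraries (0.525 M counts), r there was 0.0748. When the 2 plants farthest from the median of Bradi3g44990 were left out of each group, r was 0.612 in droughted Bd21, 0.501 in Bd21 control, 0.0350 in droughted Bd3-1 and 0.207 in Bd3-1 control plants.

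**Figure D2:**
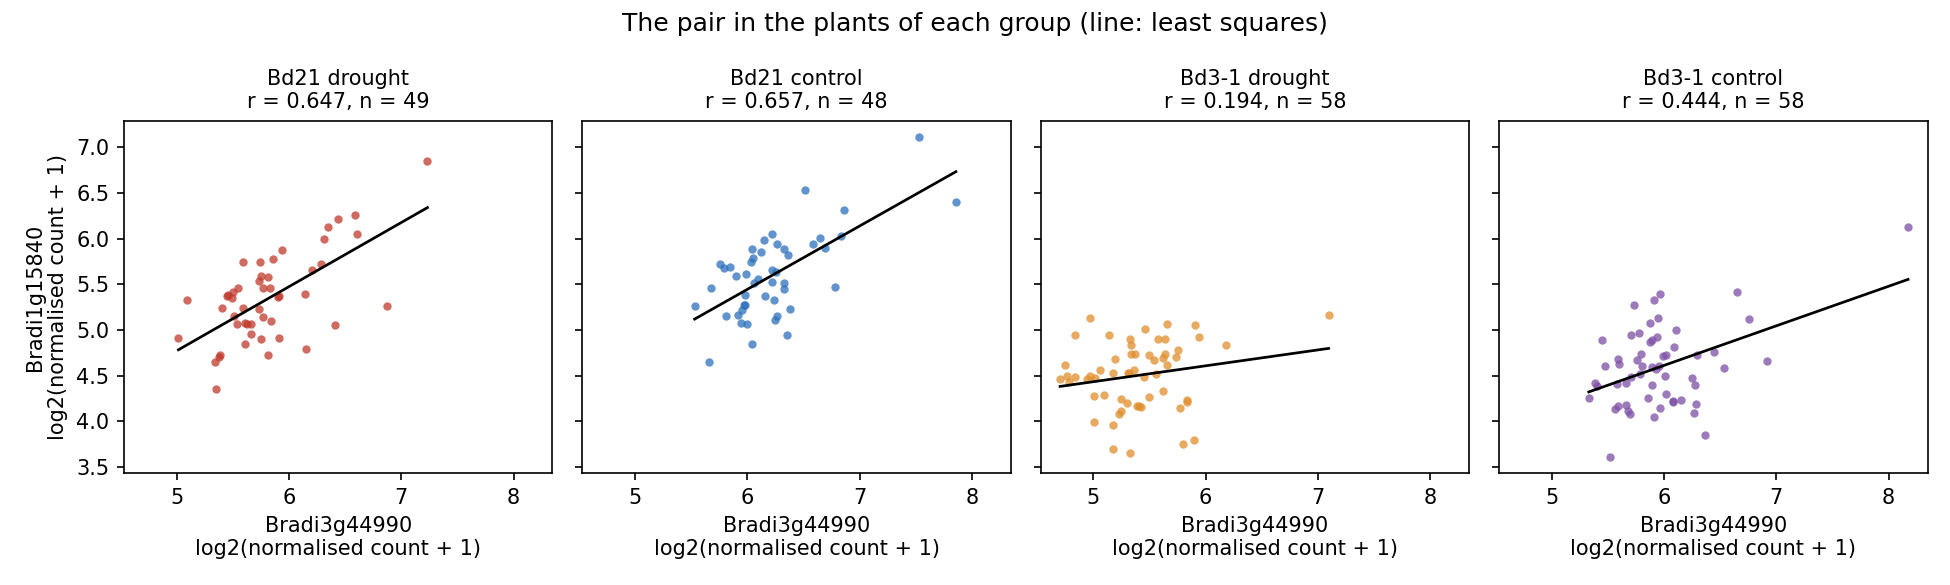
Bradi1g15840 against Bradi3g44990, both as log2(normalised read count + 1), 1 point per plant and 1 panel per group, with the least-squares line. The lines have slopes of 0.70 and 0.69 in Bd21 and of 0.17 and 0.43 in Bd3-1, and the steepness in Bd3-1 control plants leans on the plant at the far right.

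Among 11938 genes with a mean normalised count of at least 10, Bradi1g15840 ranked 54 by r with Bradi3g44990 in droughted Bd21 and 64 in Bd21 control plants. It ranked 2085 in droughted Bd3-1 and 344 in Bd3-1 control plants. Ranked the other way, Bradi3g44990 stood at 51, 121, 1705 and 193 among the genes most like Bradi1g15840 in the same order of groups. Other genes were thus closer to either gene than its partner was, in every group.

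To find such genes, each gene's count was regressed on the level of 1 of the pair within a group, in edgeR, with p-values adjusted over 26135 genes. A gene that passed with a positive slope is said here to follow, and one with a negative slope to oppose. Bradi3g44990 was followed by 594 genes (2.27%) in droughted Bd21, 1271 (4.86%) in Bd21 control, 210 (0.804%) in droughted Bd3-1 and 1242 (4.75%) in Bd3-1 control plants. It was opposed by 247 (0.945%), 802 (3.07%), 25 (0.0957%) and 321 genes (1.23%) in the same order.

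Bradi1g15840 was followed by 643 genes (2.46%) in droughted Bd21, 1430 (5.47%) in Bd21 control, 27 (0.103%) in droughted Bd3-1 and 644 (2.46%) in Bd3-1 control plants. It was opposed by 183 (0.7%), 852 (3.26%), 36 (0.138%) and 81 genes (0.31%). Groups differed in plants and in the spread of the 2 genes, so these counts were not tested against each other.

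A large share of these calls came with the extreme plants. Without the 2 plants of each group farthest from the median of Bradi3g44990, its followers numbered 217 (0.83%), 242 (0.926%), 109 (0.417%) and 326 (1.25%). Its opposing genes were 54 (0.207%), 63 (0.241%), 9 (0.0344%) and 19 (0.0727%). Without the 2 plants farthest from the median of Bradi1g15840, its followers numbered 240 (0.918%), 644 (2.46%), 0 (0%) and 46 (0.176%). Its opposing genes were 34 (0.13%), 268 (1.03%), 1 (0.00383%) and 1 (0.00383%). In droughted Bd3-1, 1675 genes of either sign then had an unadjusted p under 0.05, and limma with all plants of that group called 10 followers and 16 opposing genes of Bradi1g15840. For Bradi3g44990 limma called more than edgeR in that group, 470 followers and 315 opposing genes. The plants left out for Bradi3g44990 were 36 and 49 (droughted Bd21), 11 and 41 (Bd21 control), 37 and 33 (droughted Bd3-1) and 2 and 51 (Bd3-1 control). For Bradi1g15840 they were 36 and 19, 41 and 14, 58 and 57, and 2 and 53.

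**Figure D3:**
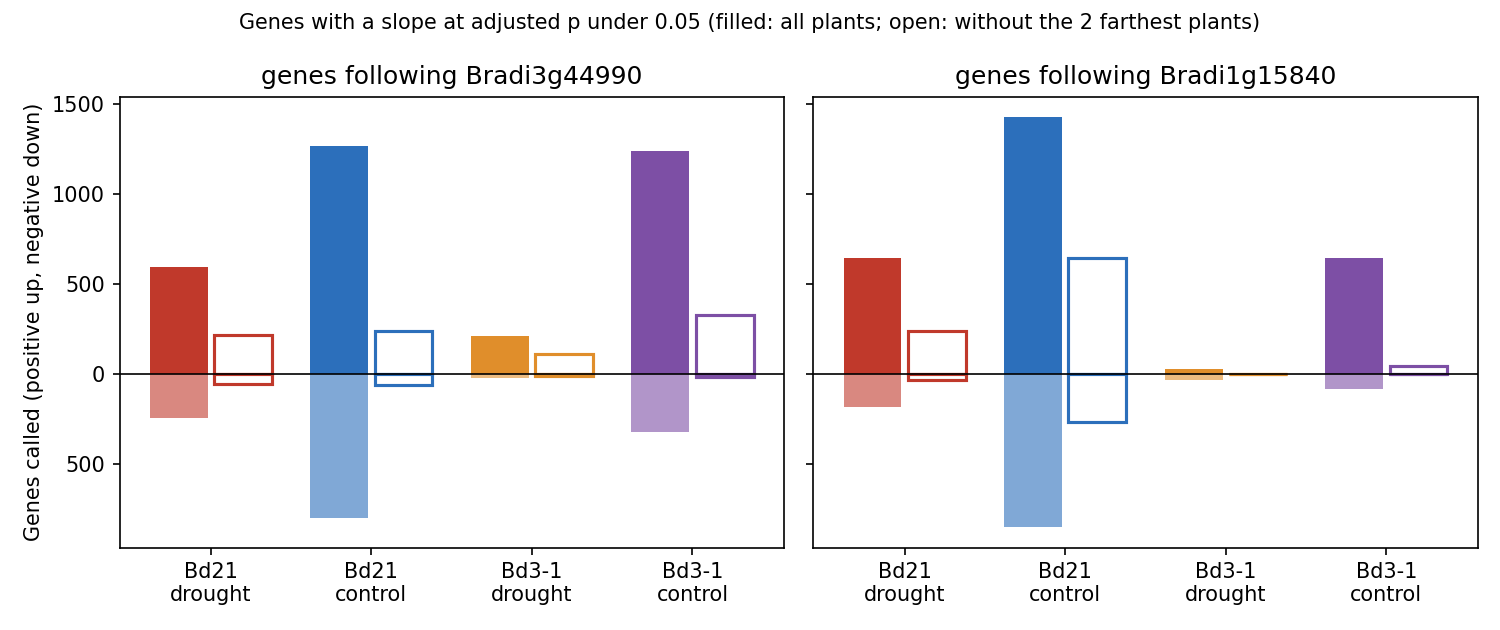
Number of genes with a positive (up) or negative (down) slope on Bradi3g44990 (left) and Bradi1g15840 (right) at an adjusted p under 0.05, by group. Filled bars use all plants and open bars leave out the 2 plants farthest from the group median: in Bd3-1 control plants the followers of Bradi1g15840 number 644 with all plants and 46 without those 2.

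Droughted and control plants, which share no library, gave overlapping sets of followers in both accessions. Of the followers of Bradi3g44990, 338 were called in both, 56.9% of those in droughted and 26.6% of those in control Bd21 plants. Of the followers of Bradi1g15840, 447 were called in both, 69.5% of those in droughted and 31.3% of those in control plants. In Bd3-1, 185 followers of Bradi3g44990 were called in both treatments, 88.1% of those in droughted and 14.9% of those in control plants. For Bradi1g15840, 19 were, 70.4% of those in droughted and 2.95% of those in control Bd3-1 plants. Opposing genes called in both treatments numbered 101 for Bradi3g44990 and 100 for Bradi1g15840 in Bd21, but 3 and 0 in Bd3-1. Between Bd21 control and Bd3-1 control plants, 485 followers of Bradi3g44990 were shared, 38.2% of the first set and 39.0% of the second. For Bradi1g15840, 381 were shared between these groups, 26.6% of the first set and 59.2% of the second. Setting the pair aside, 812 genes in Bd21 control plants followed both Bradi3g44990 and Bradi1g15840, 63.9% of the followers of the invertase and 56.8% of those of the cyclase, in the same libraries.

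The 35 other genes of a wounding and phenylpropanoid list moved with both genes in Bd21. The study drew this list, the pair included, from genes co-expressed only in Bd21 in these same plants, so it is not independent evidence of that direction. The list is named for processes enriched in it, and the study's text gives a role to only some of its genes. With Bradi3g44990, 32 of 35 genes passed with a positive slope in droughted Bd21, 34 in Bd21 control, 3 in droughted Bd3-1 and 20 in Bd3-1 control plants, and 0 passed with a negative slope. With Bradi1g15840 the numbers were 35, 35, 1 and 24. Over all tested genes 2.27%, 4.86%, 0.804% and 4.75% followed Bradi3g44990, and 2.46%, 5.47%, 0.103% and 2.46% followed Bradi1g15840. In droughted Bd3-1, 22 of the 35 had an unadjusted p under 0.05 with Bradi3g44990 and 7 with Bradi1g15840. The median r of the list with Bradi1g15840 was 0.646 in droughted Bd21, 0.629 in Bd21 control, 0.112 in droughted Bd3-1 and 0.417 in Bd3-1 control plants, beside medians between -0.00966 and 0.0106 over all tested genes.

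Without the 2 farthest plants 25, 23, 1 and 3 genes of the list passed with Bradi3g44990 and 27, 33, 0 and 5 with Bradi1g15840. Its median r with Bradi3g44990 was then 0.514, 0.496, 0.231 and 0.0745, against 0.600, 0.612, 0.316 and 0.311 with all plants. The fall was widest in Bd3-1 control plants.

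**Figure D4:**
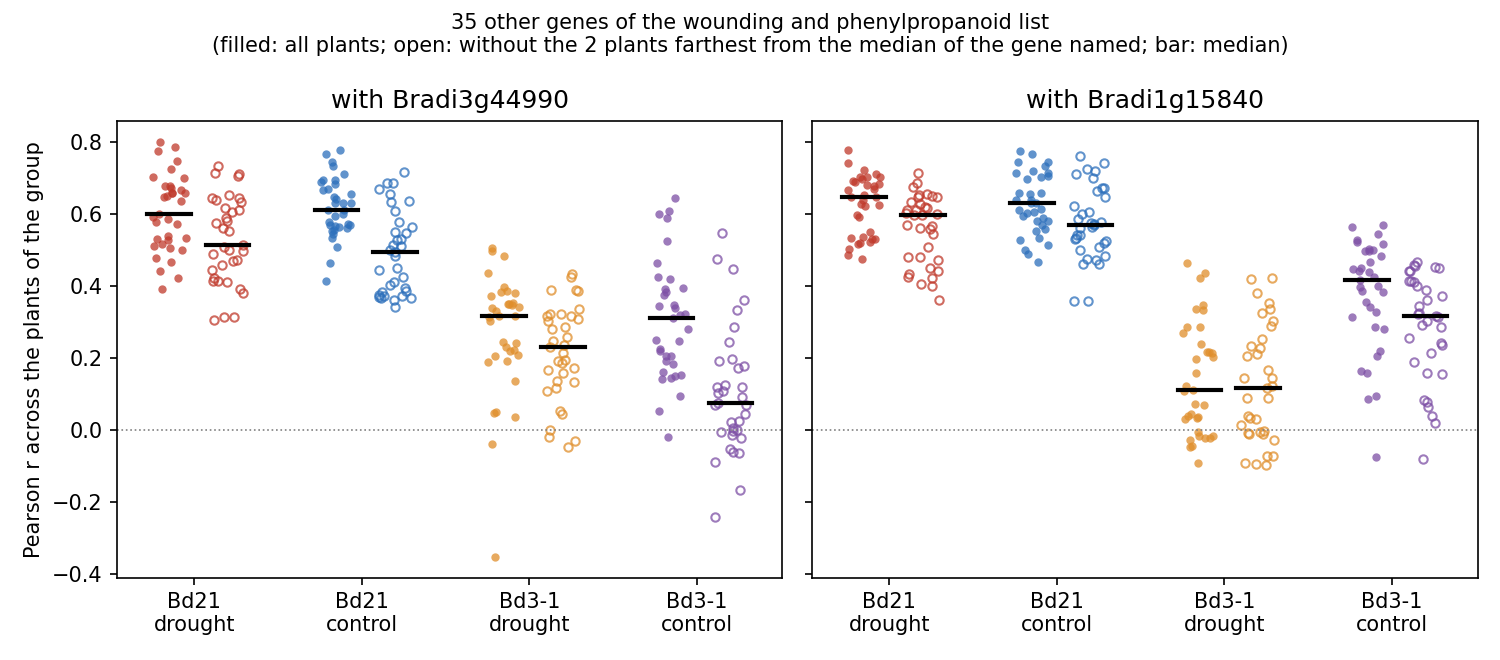
Pearson r of the 35 other list genes with Bradi3g44990 (left) and Bradi1g15840 (right) in each group, 1 point per gene, with bars at the medians. Filled points use all plants and open points leave out the 2 plants farthest from the median of the gene in the panel title: with Bradi1g15840 the medians in Bd21 control plants are 0.629 and 0.570, and in droughted Bd3-1 plants 0.112 and 0.116.

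Some of the plants farthest from the median of the pair were also far from it for the list. The plants were picked by the pair, and the list was drawn for co-expression with it in these same Bd21 plants. That both were far in the same plants is thus a description and not independent evidence. In droughted Bd21 plant 36 and in Bd21 control plants 11 and 41, 35 of 35 list genes were above their group median, and the median gene of the list stood 1.69, 1.72 and 1.80 log2 units above it. In Bd3-1 control plant 2, 34 of 35 were above, with a median of 1.54. Over 11939 genes with a mean normalised count of at least 10, the median gene of each of these 4 plants lay within 0.01 log2 units of its group median. Droughted Bd21 plant 19, the lowest of its group for Bradi1g15840 with 19.4 normalised counts, had 3 of 35 list genes above the group median and a list median of -0.70. In the droughted Bd3-1 plants farthest for Bradi3g44990 the list medians were 0.86 in plant 37 and 0.47 in plant 33. For Bradi1g15840 they were -0.34 in plant 58 and -0.09 in plant 57. The other farthest plants had list medians of 0.81 (droughted Bd21 plant 49) and 0.65 (Bd21 control plant 14). In Bd3-1 control plants 51 and 53 the list medians were 1.00 and -0.43.

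Phenylpropanoid enzymes of the list followed both genes in Bd21. Bradi5g15830, a phenylalanine ammonia-lyase (PAL), the entry enzyme of the pathway, had r of 0.678 with Bradi1g15840 in droughted Bd21 (adjusted p = 1.21e-06, edgeR) and 0.714 in Bd21 control plants (adjusted p = 5.09e-07). In droughted Bd3-1 its r was -0.0169 (adjusted p = 1) and in Bd3-1 control plants 0.498 (adjusted p = 0.000735). Its count was a fraction in 56.5% of the libraries where it was counted, so it shared reads with other transcripts and is uncertain.

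Bradi2g31510, a cinnamate hydroxylase (C4H), which acts after PAL, had whole counts in every library. Its slopes on both genes were higher in Bd21 than in Bd3-1 (adjusted p = 0.013 on Bradi3g44990 and 0.00342 on Bradi1g15840, edgeR). The list it belongs to was drawn for co-expression only in Bd21 in these plants, so this direction is not independent evidence. Without the 2 farthest plants of each group, 3 and 2 of the 35 list genes had a called slope difference. For the PAL gene the slope difference was not called with all plants (adjusted p = 0.161 and 0.0528, edgeR). The r of the C4H gene with Bradi1g15840 was 0.653 in droughted Bd21, 0.745 in Bd21 control, -0.00414 in droughted Bd3-1 and 0.417 in Bd3-1 control plants. With Bradi3g44990 it was 0.585, 0.570, -0.0394 and 0.219. The coumarate ligase Bradi3g52350, which activates the acid that C4H makes, had r with Bradi1g15840 of 0.741, 0.639, 0.202 and 0.396.

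Of the flavonoid enzymes, the hydroxylase Bradi4g31380 (F3'H) was the one that followed Bradi3g44990 in all 4 groups, with r of 0.574, 0.745, 0.484 and 0.599. The flavanone hydroxylases (F3H) Bradi2g54090 and Bradi5g19250 followed Bradi3g44990 in Bd21, with r of 0.648 and 0.508 for Bradi2g54090 and of 0.702 and 0.569 for Bradi5g19250. Bradi5g19250 had a median of 19.9 normalised counts in droughted Bd21 against 2.31 in droughted Bd3-1, and 21.5 in Bd21 control against 5.15 in Bd3-1 control plants. It also followed Bradi3g44990 in Bd3-1 control plants (r = 0.426, adjusted p = 1.53e-05, edgeR), on these low counts. Without the 2 plants farthest from the median of Bradi3g44990, the r of Bradi5g19250 there was 0.197.

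The R2R3 MYB transcription factor Bradi2g11676 had r with Bradi1g15840 of 0.683 in droughted Bd21 and 0.659 in Bd21 control plants, and of 0.214 and 0.165 in droughted and control Bd3-1 plants. Bradi2g52260, a polyphenol oxidase, an enzyme that browns wounded tissue, was among the 8 genes most like Bradi1g15840 in Bd21, with r of 0.777 and 0.707. In Bd3-1 its r was 0.217 under drought and 0.425 in control plants.

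By level, most list genes were higher in Bd21 than in Bd3-1, as both genes of the pair were. The list was drawn from co-expression found only in Bd21 in these same plants, so this direction is not independent evidence. In control plants 26 of 35 list genes were higher in Bd21 and 2 lower, against 18.1% and 15.4% of all tested genes, with a median log2 difference of 0.68 beside 0.01 over all tested genes. In droughted plants 26 were higher and 1 lower, against 18.8% and 17.4%, with a median of 0.70 beside 0.01. Under drought 3 list genes rose and 1 fell in Bd21, where 11.2% of all tested genes rose and 11.1% fell. In Bd3-1 7 list genes rose and 9 fell, where 16% of all tested genes rose and 14.7% fell.

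The genes most like each of the pair in Bd21 were chosen by the mean of r, as Fisher z, over the 2 Bd21 groups, and the 8 highest are named. For Bradi3g44990 they were Bradi3g02130 (r of 0.801 in droughted and 0.777 in control Bd21 plants), Bradi2g25470 (0.807 and 0.719), Bradi2g51120 (0.780 and 0.718), Bradi4g13670 (0.773 and 0.724), Bradi1g77040 (0.695 and 0.777), Bradi5g05430 (0.652 and 0.804), Bradi3g14710 (0.776 and 0.689) and Bradi3g09240 (0.596 and 0.818). Bradi3g02130 and Bradi3g14710 belong to the wounding and phenylpropanoid list. No function is given to the other 6 by the sources used here.

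Of these 8, 5 also followed Bradi3g44990 in droughted Bd3-1 and 7 in Bd3-1 control plants. Bradi2g25470 had r of 0.602 in droughted and 0.703 in control Bd3-1 plants (adjusted p = 0.00018 and 2.48e-10, edgeR), and Bradi1g77040 had 0.544 and 0.709 (adjusted p = 0.00101 and 5.9e-11). Bradi2g51120 and Bradi3g14710 had r of 0.132 and 0.349 in droughted and of 0.234 and 0.183 in control Bd3-1 plants. Bradi2g51120 had medians of 1.84 and 0.861 normalised counts in droughted and control Bd3-1 plants, against 18.1 and 7.96 in Bd21, so that little of it was counted in Bd3-1.

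For Bradi1g15840 the 8 genes were Bradi1g21330 (0.798 and 0.798), Bradi4g08450 (0.675 and 0.839), Bradi3g10820 (0.741 and 0.785), Bradi3g09240 (0.696 and 0.814), Bradi5g24410 (0.722 and 0.781), Bradi3g21610 (0.730 and 0.760), the polyphenol oxidase Bradi2g52260 and Bradi3g37140 (0.711 and 0.764). Bradi3g09240 is thus among the 8 of both genes, though its count was a fraction in 55.1% of libraries. Bradi5g24410 was the most abundant, with medians of 1299.5 and 1477 normalised counts in droughted and control Bd21 plants, against 692.2 and 757.2 in Bd3-1.

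At the other end, the 4 genes with the lowest mean r in Bd21 were Bradi3g39210 (-0.718 and -0.716), Bradi5g04070 (-0.602 and -0.801), Bradi2g00390 (-0.627 and -0.688) and Bradi2g38765 (-0.604 and -0.693) for Bradi3g44990. For Bradi1g15840 they were Bradi4g19641 (-0.692 and -0.766), Bradi5g04070 (-0.686 and -0.748), Bradi1g09400 (-0.627 and -0.720) and Bradi1g73120 (-0.607 and -0.695). Bradi5g04070 thus ran against both genes of the pair. It had medians of 750.2 and 840.2 normalised counts in droughted and control Bd21 plants and fell to 185.0 in its lowest Bd21 control plant. The count of Bradi1g73120 was a fraction in every library, and its value is uncertain.

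In Bd3-1 the genes most like Bradi3g44990 were Bradi1g23450 (r of 0.722 in droughted and 0.752 in control plants), Bradi5g22950 (0.601 and 0.763), Bradi2g46501 (0.581 and 0.767) and Bradi1g69710 (0.619 and 0.719). All 4 also followed it in both Bd21 groups, with r of 0.449 and 0.664, 0.523 and 0.596, 0.557 and 0.651, and 0.505 and 0.497. For Bradi1g15840 they were Bradi3g10820 (0.541 and 0.676), Bradi1g24960 (0.384 and 0.717), Bradi3g39620 (0.492 and 0.631) and Bradi2g11960 (0.366 and 0.705). Of these, Bradi3g10820 was also among the 8 most like it in Bd21.

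Whether a gene moved differently with the pair in the 2 accessions was tested directly, as the mean slope over the Bd21 groups minus that over the Bd3-1 groups. For Bradi3g44990, 139 genes (0.532%) had a higher and 133 (0.509%) a lower slope in Bd21. For Bradi1g15840, 76 (0.291%) had a higher and 44 (0.168%) a lower one. These slopes are on a counted level, and counting noise in that level, which flattens a slope, was not modelled. Bradi1g15840 had median counts of 41 and 51 in droughted and control Bd21 plants, against 23.5 and 22.5 in Bd3-1. The part of counting noise in the slope differences was not tested. Of the 35 list genes, 9 had a higher slope on Bradi3g44990 in Bd21 and 6 a higher slope on Bradi1g15840, and 0 a lower one. The 9 were Bradi1g25150, Bradi1g75290, Bradi2g11676, Bradi2g31510, Bradi2g51170, Bradi3g02130, Bradi3g08160, Bradi3g14710 and Bradi3g52350. The list was drawn for co-expression only in Bd21 in these same plants, so the higher slopes of its genes in Bd21 are not independent evidence.

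These calls fell to 16 (0.0612%) and 19 genes (0.0727%) for Bradi3g44990 and to 21 (0.0804%) and 3 (0.0115%) for Bradi1g15840 without the 2 farthest plants of each group, when 3 and 2 list genes were called. 

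The clearest difference was that of Bradi3g07010, for both genes of the pair. On Bradi3g44990 its slope was 1.37 ± 0.14 (SE) in droughted Bd21, 1.53 ± 0.14 in Bd21 control, -0.31 ± 0.17 in droughted Bd3-1 and 0.33 ± 0.12 in Bd3-1 control plants (difference 1.44, SE 0.16, adjusted p = 1.88e-12, edgeR). On Bradi1g15840 the difference was 1.37 (SE 0.18, adjusted p = 3.09e-08). Its normalised read count ranged over 20.6 to 331.5 in droughted Bd21, 12.7 to 317.7 in Bd21 control, 14.1 to 82.3 in droughted Bd3-1 and 5.29 to 43.9 in Bd3-1 control plants. Without the farthest plants the differences were 1.17 (adjusted p = 0.00547) and 1.37 (adjusted p = 2.15e-05).

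Bradi1g21330, the gene most like Bradi1g15840 in Bd21, also differed on both. On Bradi1g15840 its slope was 0.87 ± 0.08 and 1.03 ± 0.09 in droughted and control Bd21 plants, and 0.13 ± 0.10 and 0.39 ± 0.08 in droughted and control Bd3-1 plants (difference 0.69, SE 0.09, adjusted p = 7.98e-08). Bradi5g04070, which ran against the pair in Bd21, had slopes on Bradi3g44990 of -0.45 ± 0.09 and -0.75 ± 0.09 in Bd21 and of -0.08 ± 0.07 and -0.17 ± 0.07 in Bd3-1 (difference -0.48, SE 0.08, adjusted p = 7.86e-06).

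Bradi1g00970 went the other way and followed Bradi3g44990 in Bd3-1. Its slope was -0.23 ± 0.31 in droughted Bd21 and -0.36 ± 0.32 in Bd21 control plants, against 1.63 ± 0.33 in droughted Bd3-1 and 2.02 ± 0.22 in Bd3-1 control plants (difference -2.12, SE 0.35, adjusted p = 1.89e-05). It remained called without the farthest plants (difference -2.53, adjusted p = 0.000615). Its medians were 6.54 and 8.49 normalised counts in Bd21, against 28.8 and 48.3 in Bd3-1. The estimates were fractions in 98.6% of the libraries where it was counted, so reads were shared with other transcripts and the value is uncertain.

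**Figure D5:**
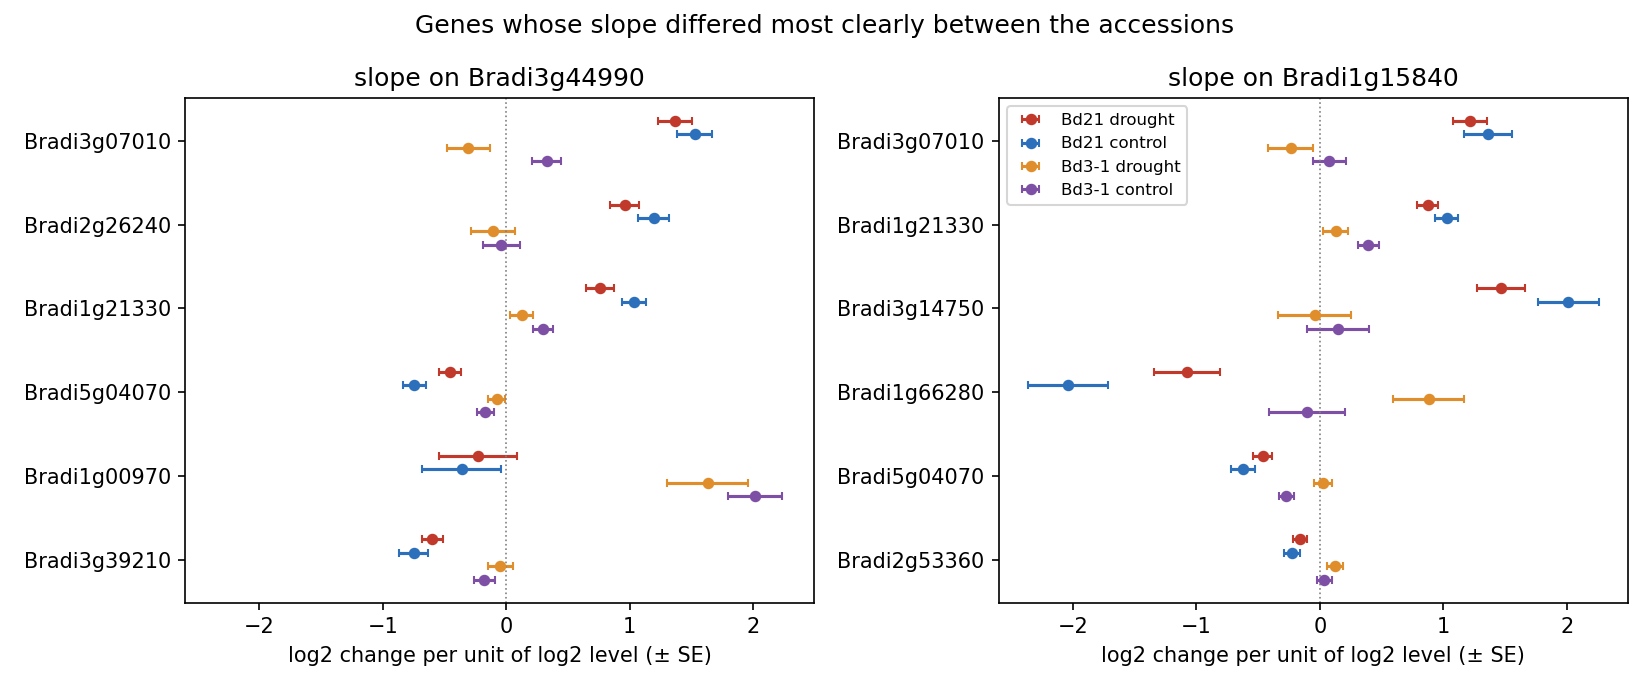
Slope, in log2 change of the gene per log2 unit of Bradi3g44990 (left) or Bradi1g15840 (right), of the 3 genes with the smallest adjusted p in each direction of the difference between accessions. Points are the slopes within each group and bars their SE: Bradi3g07010 lies at 1.37 and 1.53 on Bradi3g44990 in Bd21, and at -0.31 and 0.33 in Bd3-1.

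Genes of 5 other lists were drawn from processes that the study names. Of 6 carbon metabolism genes, 4 followed Bradi1g15840 in droughted Bd21, 3 in Bd21 control and 0 in either Bd3-1 group, where 0 (drought) and 4 (control) had an unadjusted p under 0.05 in edgeR. Over all tested genes 2.46% followed it in droughted Bd21, 5.47% in Bd21 control, 0.103% in droughted Bd3-1 and 2.46% in Bd3-1 control plants. Without the 2 farthest plants 1 and 2 of the 6 passed in droughted and control Bd21. Among them the pyruvate kinase Bradi3g33930, an enzyme of the last step of glycolysis, had r of 0.672 and 0.596 in droughted and control Bd21 plants and of 0.1501 and 0.265 in Bd3-1, and the endoglucanase Bradi5g14580 had 0.501 and 0.637 in Bd21 and 0.117 and 0.298 in Bd3-1. Bradi3g33930 was the 1 gene of the 6 whose slopes on both Bradi3g44990 and Bradi1g15840 differed between accessions, and without the 2 farthest plants neither difference was called (0.54, adjusted p = 0.261, and 0.60, adjusted p = 0.0587, edgeR). Of 3 further phenylpropanoid genes, 3 followed Bradi1g15840 in droughted Bd21, 2 in Bd21 control, 0 in droughted Bd3-1 and 1 in Bd3-1 control plants. Without the 2 farthest plants 1, 2, 0 and 0 did. With all plants, Bradi3g44990 was followed by 2, 2, 0 and 0 of the 6 carbon metabolism genes in the same order of groups. It was followed by 0, 0, 0 and 1 of the 3 further phenylpropanoid genes, and by 2.27%, 4.86%, 0.804% and 4.75% of all tested genes.

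Of 15 abscisic acid and drought genes, 6 opposed and 1 followed Bradi3g44990 in droughted Bd21, with a median r of -0.402 beside 0.00394 over all tested genes. Over all tested genes 0.945% opposed and 2.27% followed Bradi3g44990 there. Without the 2 farthest plants 3 opposed and 0 followed it there. With all plants 1 followed and 0 opposed it in Bd21 control, where 4.86% of all tested genes followed and 3.07% opposed it. In Bd3-1 control plants 2 followed and 0 opposed it, where 4.75% of all tested genes followed and 1.23% opposed it. The late embryogenesis abundant (LEA) protein gene Bradi1g51770, a marker of dehydration, had r of -0.627 with Bradi3g44990 in droughted Bd21. In Bd21 control plants its r was -0.245, and its median was 1.62 normalised counts against 32.4 under drought. AITR3 (Bradi4g39520) had r of -0.542 and HAB1 (Bradi2g18510) r of -0.565 in droughted Bd21. HAB1 had r of 0.329 in Bd21 control and 0.446 in Bd3-1 control plants, where it followed. It was the 1 gene of the 15 with a called slope difference on Bradi3g44990 (-0.43, adjusted p = 0.044, edgeR), and 0 were called without the 2 farthest plants. The follower in both Bd21 groups was the wax biosynthesis gene Bradi2g23740 (r of 0.447 and 0.418). NCED2 (Bradi1g13760) was the other follower in Bd3-1 control plants (r = 0.458). In droughted Bd3-1 0 of the 15 passed with Bradi3g44990 in edgeR, 0 had an unadjusted p under 0.05, and their median r was -0.0217. With Bradi1g15840, 1 of the 15 followed in each Bd21 group, where 2.46% (drought) and 5.47% (control) of all tested genes did. In either Bd3-1 group 0 of the 15 followed, and 0 opposed Bradi1g15840 in any group. In droughted Bd21 7 of them had an unadjusted p under 0.05 with Bradi1g15840 in edgeR, and the median r was -0.236. By level 14 of the 15 rose under drought in Bd21, against 11.2% of all tested genes, and 14 in Bd3-1, against 16%, while Bradi3g44990 fell in both.

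Of 7 NAC and chlorophyll genes, 1 opposed Bradi3g44990 in Bd21 control and 1 in Bd3-1 control plants, Bradi4g31257 in both cases (r of -0.524 and -0.484), and 0 passed with Bradi1g15840 in any group, where 1 to 3 had an unadjusted p under 0.05 in edgeR. Of 5 clock genes, 1 opposed Bradi3g44990 in droughted Bd21, the LUX-related Bradi2g62067 (r = -0.357, adjusted p = 0.0488), and 0 passed in the other combinations of gene and group, where 0 or 1 had an unadjusted p under 0.05 in edgeR. The shares of all tested genes that opposed Bradi3g44990 were 3.07% in Bd21 control, 1.23% in Bd3-1 control and 0.945% in droughted Bd21 plants. Without the 2 farthest plants neither Bradi4g31257 (adjusted p = 0.0975 in Bd21 control and 0.266 in Bd3-1 control plants, edgeR) nor Bradi2g62067 (adjusted p = 0.0983) passed with Bradi3g44990.

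Depth and plastid share moved with the pair in few groups. In 16 relations of the 2 genes with log2 library total or plastid share, 1 passed by Pearson's r and 1 by Spearman's rho in permutation tests. In Bd3-1 control plants Bradi3g44990 had r of -0.374 with the plastid share (permutation p = 0.00308, adjusted 0.0493; rho = -0.339, permutation p = 0.00939, adjusted 0.0751; r = -0.357 without the 2 plants farthest in plastid share). In Bd21 control plants Bradi1g15840 had rho of 0.472 with log2 library total (permutation p = 0.00088, adjusted 0.0141; r = 0.309, permutation p = 0.0373, adjusted 0.199; r = 0.501 without the 2 plants farthest in total). Given log2 library total, the partial r of the pair was 0.655, 0.652, 0.191 and 0.440. The part of the plastid share in the slopes was not tested.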

How the data were processed

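The authors trimmed the reads (Trimmomatic 0.39, cutadapt 2.10), aligned them with Bowtie2 2.4.0 to primary transcripts of Bd21 and plastid sequences, collapsed molecular identifiers, and deposited expected counts estimated with RSEM 1.3.3, which were not normalised. These were rounded to whole counts. Each library is a separate plant, grouped by its labels. The labels used here name no flow cell for a plant, so no batch was examined. No 2 libraries of a group agreed within sampling noise (lowest chi-square of 2.15 per gene).

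Genes with a count in more than 10 libraries were fitted in R 4.3.3 with the edgeR 4.0.16 quasi-likelihood test (TMM factors, Benjamini-Hochberg adjusted p under 0.05, under 0.1 for the interaction): treatment and accession effects on level, slopes on each gene of the pair within a group, and the difference of slopes between accessions. The script was tested on simulated data. Correlations used Python 3.11.15 with scipy 1.17.1 on log2(normalised count + 1), with 100000 permutations where a p is given. Named genes are, for each of the pair, the 8 with the highest and 4 with the lowest mean r in Bd21 and the 4 with the highest in Bd3-1 (mean count of at least 10), the 3 most significant slope differences in each direction, list genes with a stated role, and the 3 most correlated of each other list. The pair and the lists were chosen with earlier results of these data known. Alternatives were DESeq2 1.42.0, limma 3.58.1, other scalings, filters and covariates, plant 59 kept, and replicate number as a block. Leaving out the 2 farthest plants was added after seeing the data. No locus was matched in the RefSeq table used here (0 of 31335), so no sequence or position is given. Library totals of 0.525 to 8.37 M counts limit precision for low genes.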

Additional observations from a re-analysis of the deposited data

Results flagged for a closer look

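The slopes of 12 combinations of gene and pair member differed between accessions in the edgeR test of the difference itself (Bd21 minus Bd3-1, log2 per log2 unit, with plants from 4 groups). On Bradi3g44990 the slope was higher in Bd21 for Bradi3g07010 by 1.44, for Bradi2g26240 by 1.15 (adjusted p = 9.11e-09) and for Bradi1g21330 by 0.69 (adjusted p = 2.65e-06). On the same gene the differences of Bradi5g04070, Bradi1g00970 and Bradi3g39210 were -0.48, -2.12 and -0.56. On Bradi1g15840 the slope was higher in Bd21 for Bradi3g07010 by 1.37, for Bradi1g21330 by 0.69 and for Bradi3g14750 by 1.68 (adjusted p = 2.71e-05), the last with group medians of 4.72 to 6.95 normalised counts. On that gene the differences of Bradi1g66280, Bradi5g04070 and Bradi2g53360 were -1.95 (adjusted p = 0.00013), -0.42 (adjusted p = 0.00015) and -0.27 (adjusted p = 0.00628). They were picked for the smallest p-values in each direction.

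Without the 2 farthest plants of each group, Bradi2g26240 (0.78, adjusted p = 0.112), Bradi1g21330 (0.55, adjusted p = 0.0716) and Bradi3g39210 (-0.47, adjusted p = 0.112) were no longer called on Bradi3g44990, nor were Bradi5g04070 (-0.31, adjusted p = 0.0643) and Bradi2g53360 (-0.27, adjusted p = 0.0924) on Bradi1g15840. The direction was unchanged in all 12.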

How the results depend on the processing

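Of the 447 recomputed values, 362 kept their direction and side of the threshold, or stayed within the replicate spread or 1.5 times the count, and 0 reversed. The levels of both genes kept their calls under all 7 alternatives, the replicate block included. Same-numbered plants were not paired by a label, and their deviations correlated above 0.1 in 14 of 49 to 31 of 58 pairs, with medians of 0.0461 to 0.127 beside -0.00667 to -0.00168 over all pairs, and with 1 to 7 plants closest to their own number. With replicate number as a block, the slope differences numbered 63 higher and 59 lower in Bd21 on Bradi3g44990 and 49 and 11 on Bradi1g15840, and Bradi2g53360 was no longer called (-0.21, adjusted p = 0.244).

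The r of the pair was 0.542 in Bd21 control plants with both genes thinned to the mean count of their lowest group. Without the 2 farthest plants it was 0.501 in Bd21 control, 0.0350 in droughted Bd3-1 and 0.207 in Bd3-1 control plants. Followers and opposing genes of Bradi3g44990 were then 217 and 54, 242 and 63, 109 and 9, and 326 and 19, and those of Bradi1g15840 were 240 and 34, 644 and 268, 0 and 1, and 46 and 1. Slope differences were 16 higher and 19 lower on Bradi3g44990, and 21 and 3 on Bradi1g15840. For the mean r of named genes over the alternatives, 22 recomputed values moved by more than the spread and 138 did not.

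With normal scores of the ranks, Bradi3g44990 had 369 opposing genes in Bd21 control and 699 followers and 74 opposing genes in Bd3-1 control plants, and Bradi1g15840 had 61 opposing genes in droughted and 411 followers and 38 opposing genes in control Bd3-1 plants. With limma the droughted Bd3-1 counts were 470 and 315 on Bradi3g44990 and 10 and 16 on Bradi1g15840, which had 267 followers in Bd3-1 control plants. Over genes with a mean count of at least 10, there were 41 opposing genes of Bradi3g44990 and 43 followers and 59 opposing genes of Bradi1g15840 in droughted Bd3-1, 133 opposing genes of Bradi1g15840 in Bd3-1 control, 213 slopes higher in Bd21 on Bradi3g44990 and 89 lower on Bradi1g15840. With the 48 lowest replicate numbers, Bradi3g44990 had 156 opposing genes in droughted Bd21, and Bradi1g15840 had 1 follower and 1 opposing gene in droughted Bd3-1. With droughted Bd3-1 plant 59 kept, these were 171 and 85, Bradi3g44990 had 71 opposing genes, and slope differences on Bradi1g15840 were 50 higher and 71 lower. With library total as a covariate, 15 genes opposed Bradi3g44990 in droughted Bd3-1 and 70 slopes on Bradi1g15840 were lower in Bd21. With levels standardized within groups, 132 slopes on Bradi1g15840 were higher and 84 lower in Bd21. The causes of these shifts were not tested. Low counts limit Bradi1g15840 in Bd3-1, where single plants had as few as 9 counts.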

Other observations

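Droughted Bd3-1 plant 59, which was left out of every comparison, had 80.4 normalised counts of Bradi3g44990 (59 counts) and 49.04 of Bradi1g15840 (36 counts), both above the group medians of 39.7 and 21.95.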
